A study of Bos taurus with 2 samples.

Results

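The milk fat globule membrane genes described here are BTN1A1 (ENSBTAG00000031753), XDH (ENSBTAG00000012519), PLIN2 (ENSBTAG00000005718), MFGE8 (ENSBTAG00000003300), CD36 (ENSBTAG00000017866) and FABP3 (ENSBTAG00000016819), 6 of the 27270 genes counted. They were taken by name, as rows of both count matrices, and followed across barcodes sorted into cell types by the raw counts of lineage markers. The tissue was mammary gland of Holstein dairy cattle, sampled at the lactating adult and the newborn stage, 1 library each. The labels do not say whether a library came from 1 animal or a pool. The labels name no treatment for either stage, both went through the same enzymatic dissociation after removal of fat, and single cells were sequenced from the 3' ends of their transcripts. Each stage is 1 library, so stage, animal and library cannot be told apart, no test was made, and every interval below is a 95% interval of counting error only.

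Milk fat leaves the mammary epithelial cell as a lipid droplet wrapped in the cell's own apical membrane. The droplet is coated inside the cell by the perilipin PLIN2 (adipophilin), and the enveloping membrane is rich in butyrophilin (BTN1A1), whose cytoplasmic tail binds xanthine dehydrogenase (XDH), an enzyme of purine breakdown. MFGE8 (lactadherin) is a secreted glycoprotein that binds phosphatidylserine on membranes, CD36 is a scavenger receptor and fatty acid transporter, and FABP3 is a fatty acid carrier of the cytosol. Outside the gland CD36 is known from capillary endothelium, macrophages and fat cells, and XDH from endothelium.

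Unique molecular identifiers (UMIs, each standing for 1 captured transcript) were summed over the barcodes of a gate, meaning a set of barcodes chosen by marker UMIs, and expressed as CPM, the count scaled to a fixed total of UMIs of that gate (1000000). A count of 3' ends does not grow with transcript length, but genes differ in how well their 3' ends are captured and annotated, so comparisons are made within a gene. The adult library held 85388618 UMIs in 15897 barcodes and the newborn library 65597671 UMIs in 13772 barcodes. Together 28401 of 29669 barcodes passed the filters, beside 24472 cells stated by the study, and 57 barcode sequences occurred in both libraries. Marker rules, which allow a barcode at most 1 lineage, placed 10664 adult barcodes (72.6% of those passing) and 11408 newborn barcodes (83.2%). Casein UMIs were found in 99.98% of adult passing barcodes, with a median of 46 in T and NK barcodes, whereas the whole newborn library held 1 casein UMI. Epithelial barcodes were therefore called milk-secreting at 460 casein UMIs or more (412 barcodes), other epithelial under 138 (780 barcodes) and intermediate between these limits (226 barcodes). The 10 epithelial markers summed to 2872 CPM in the milk-secreting and 20046 CPM in the other epithelial gate. No barcode met the rule for basal epithelium, 3 adult and 1 newborn barcodes met that for pericytes, and 127 and 6 endothelial barcodes could be put in neither vessel type. No newborn barcode met the epithelial rule either, which allows a share of up to 0.0219% of the 13710 that passed, so the secretory comparison exists only in the adult.

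In the lactating adult the 6 genes had unlike patterns over cell types. BTN1A1 and FABP3 were highest in milk-secreting barcodes and lower in all other gates of at least 50 barcodes. Over all UMIs XDH, PLIN2, MFGE8 and CD36 were each as high or higher in some gate outside the epithelium. The plot of levels by gate shows both libraries.

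**Figure D1:**
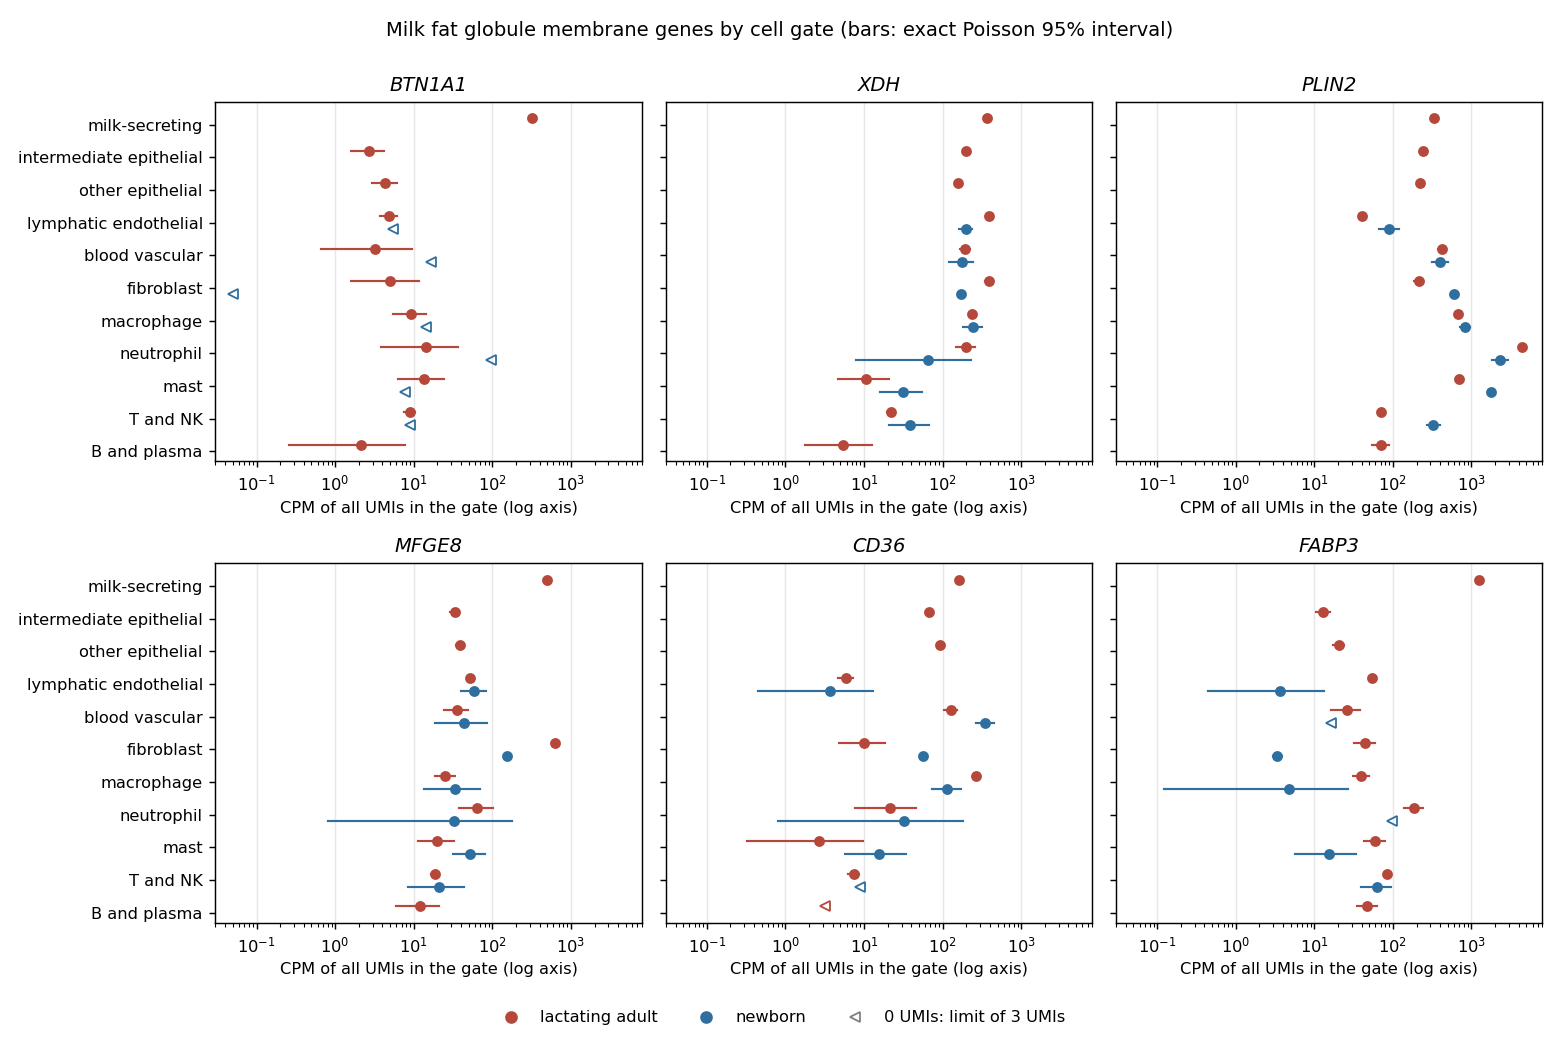
Level of each gene (x axis, CPM of all UMIs in the gate, log scale) in gates of at least 15 barcodes (y axis) of the lactating adult (red) and newborn (blue), with the exact Poisson 95% interval as a bar; open triangles stand at the level of 3 UMIs where 0 were counted. BTN1A1 stands at 317 CPM in milk-secreting barcodes and at 2.16 to 14.1 CPM in the other adult gates, while XDH lies near 386 CPM in lymphatic endothelial and 387 CPM in fibroblast barcodes.

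BTN1A1, the transmembrane butyrophilin, had 6465 UMIs in the milk-secreting gate, 317 CPM (309 to 325). In the other epithelium it had 31 UMIs, 4.31 CPM (2.93 to 6.12). The milk-secreting level was 73.6-fold higher (51.8 to 108), and the intervals lay far apart. XDH, its binding partner at the membrane, stood at 367 CPM (359 to 375) against 157 CPM (148 to 166), a ratio of 2.34 (2.19 to 2.49). PLIN2, the droplet coat, stood at 332 CPM (324 to 340) against 219 CPM (208 to 230), a ratio of 1.51 (1.43 to 1.60). Over all UMIs these last 2 genes thus differed by less than the 4-fold used for a call below. MFGE8 was at 494 CPM (484 to 503) against 38.5 CPM (34.1 to 43.3), a ratio of 12.8 (11.4 to 14.5). CD36 was at 164 CPM (158 to 169) against 91.6 CPM (84.7 to 98.9), a ratio of 1.79 (1.64 to 1.95). FABP3, the cytosolic carrier, had the highest count of the 6 in secreting cells, 1256 CPM (1241 to 1272), against 20.6 CPM (17.4 to 24.2). Its ratio of 61.1 (52.0 to 72.3) was second to that of BTN1A1, with overlapping intervals.

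A gene was called at a ratio of 4 or more with at least 20 UMIs in the higher gate. By this rule 3 of the 6 genes (BTN1A1, MFGE8 and FABP3) were higher in milk-secreting than in other epithelial barcodes, beside 1.13% of the 10537 genes tested, and none was lower, beside 61.8% of all genes. Milk protein transcripts (4 caseins, LALBA, PAEP and GLYCAM1) made up 73.7% of the UMIs of secreting barcodes and 0.991% of those of other epithelium, and the ratios of all genes were shifted by -2.13 on the log2 scale. Over all UMIs 119 genes were called higher and 6517 lower. With milk protein UMIs left out of the total the split was 372 higher to 979 lower. On that scale all 6 genes passed, beside 3.53% of genes higher and 9.29% lower, with ratios of 277 for BTN1A1, 8.80 for XDH, 5.70 for PLIN2, 48.3 for MFGE8, 6.74 for CD36 and 230 for FABP3. Relative to the shift of all genes, the log2 differences were 8.31 for BTN1A1, 8.06 for FABP3, 5.81 for MFGE8, 3.35 for XDH, 2.97 for CD36 and 2.72 for PLIN2, all higher in the secreting gate. The choice of total thus decides whether XDH, PLIN2 and CD36 count as higher. Their direction was the same on every scale.

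In transcripts per barcode the difference was plain. A milk-secreting barcode held on average 15.7 UMIs of BTN1A1, 18.2 of XDH, 16.4 of PLIN2, 24.4 of MFGE8, 8.11 of CD36 and 62.2 of FABP3. These barcodes were also deep, with a median of 37516 UMIs against 7894 in the other epithelium. After thinning each barcode to 1000 UMIs, BTN1A1 was seen in 25.5% of secreting barcodes (21.3 to 30.0), in 0.568% of other epithelial barcodes and in 0.840% of T and NK barcodes (92.5%, 3.72% and 2.77% unthinned). FABP3 was seen in 60.7% (55.8 to 65.4), 4.40% and 8.15% (95.1%, 15.6% and 21.4% unthinned). The T and NK barcodes, of median depth 2895 UMIs, are lymphocytes and were chosen as cells that should lack the milk genes. For both genes the thinned share in the other epithelium was no higher than in lymphocytes. For FABP3 this sets no background level, because T and NK barcodes had more of it per casein UMI than secreting barcodes, as given below.

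All 6 genes were found together in 302 of 412 secreting barcodes (73.3%). The same was true of 3 of 226 intermediate, 0 of 780 other epithelial and 2 of 2229 lymphatic endothelial barcodes. These counts were not thinned, the secreting barcodes were the deepest of these gates by median, and the part of depth was not tested. Among secreting barcodes the median level was 265 CPM for BTN1A1, 303 for XDH, 259 for PLIN2, 357 for MFGE8, 133 for CD36 and 988 for FABP3. The 5th to 95th percentile ran from 52.0 to 890 CPM for XDH and from 12.3 to 2690 CPM for FABP3. Total UMIs per barcode ran from 4429 to 132205 between these percentiles, and the part of counting error in the spread was not tested. The closest pair was BTN1A1 and XDH, with a Spearman correlation of 0.425 over the 412 barcodes and 0.543 over the 273 barcodes of at least 20000 UMIs. The other pairs lay between -0.0861 (XDH and FABP3) and 0.366 (BTN1A1 and MFGE8). XDH was lower where caseins took a larger share of UMIs (-0.205) and MFGE8 higher (0.337). With the mitochondrial share of UMIs, a sign of RNA quality, XDH had a correlation of 0.367 and FABP3 of -0.291. All these barcodes come from 1 library and each total contains the genes compared, so these are descriptions of these cells.

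**Figure D2:**
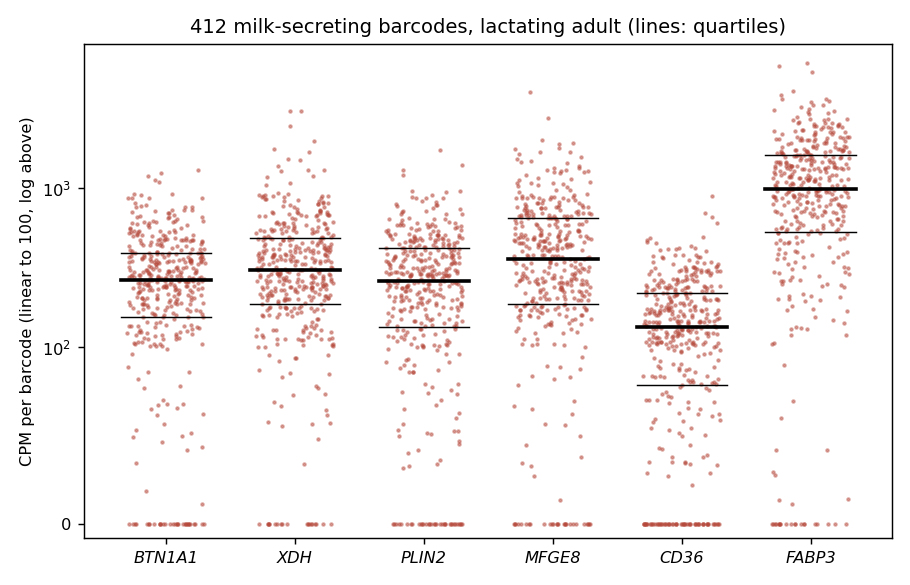
Level of each gene (y axis, CPM per barcode, linear to 100 and logarithmic above) in each of the 412 milk-secreting barcodes of the lactating adult (points), with the median as a thick line and the quartiles as thin lines. FABP3 has its median at 988 CPM and CD36 at 133 CPM, and each gene has some barcodes at 0.

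The level of BTN1A1 differed between bins of low and high casein count. Epithelial barcodes with 230 to 460 casein UMIs (78 barcodes) had 3.44 CPM of BTN1A1 and 15.5 CPM of FABP3. The 13 barcodes with 460 to 920 had 7.19 and 75.5 CPM, and the 74 with 920 to 4600 had 235 and 554 CPM. Barcodes above 4600 casein UMIs (325) had 325 and 1302 CPM. The median depths of these 4 bins were 42014, 5264, 7464 and 50768 UMIs. Intervals were not computed for the bins, and the bin of 13 barcodes is small, so how steeply the level changes is not shown. Raw casein limits do not allow for depth, and the part of depth in the bins was not tested. XDH moved far less over the same bins, from 215 CPM at 230 to 460 casein UMIs to 466 CPM at 920 to 4600 and 365 CPM above. The intermediate epithelium, with a median of 29054 UMIs per barcode, had BTN1A1 at 2.66 CPM (1.60 to 4.16), while its XDH level was 201 CPM (191 to 212).

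Casein UMIs in lymphocytes and all other adult gates raised the question of free RNA, transcripts captured in a droplet without coming from its cell. Free RNA was not measured directly, so each gene was set against the casein UMIs of the same gate. BTN1A1 had about the same ratio in all gates. Its UMIs per casein UMI, set against the same quantity in T and NK barcodes, lay between 0.542 (neutrophils) and 1.48 (macrophages), and each interval included 1. In secreting barcodes the value was 1.03 (0.884 to 1.21). In every adult gate BTN1A1 thus kept the ratio to casein found in secreting cells, within counting error. The newborn library held 0 BTN1A1 UMIs in 13772 barcodes. Whether the UMIs outside the secreting gate are free RNA was not tested.

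FABP3 lay between 0.357 and 1.36 on the same scale over all gates, and was also without any gate that stood high. Unlike BTN1A1, it had more UMIs per casein UMI in T and NK barcodes than in secreting cells, by 2.28 (2.16 to 2.40). Lymphatic endothelium had 2.59 times the secreting value (2.41 to 2.78) and B and plasma barcodes 3.09 times (2.24 to 4.15). In lymphatic barcodes 16 of 2229 held 35.6% of the FABP3 UMIs, and the highest barcode alone held 103 UMIs. Those 16 had a median of 13095 UMIs, against 3514 in the 1819 lymphatic barcodes without FABP3. BTN1A1 was at 24.8 against 3.69 CPM, and the part of depth in this concentration was not tested. T and NK barcodes had no such concentration, with FABP3 in 1200 barcodes and a maximum of 24 UMIs. In the newborn library, with its 1 casein UMI, T and NK barcodes had FABP3 at 62.7 CPM (38.8 to 95.8), from 21 UMIs in 8 of 63 barcodes. Of these UMIs 71.4% came from 2 barcodes.

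**Figure D3:**
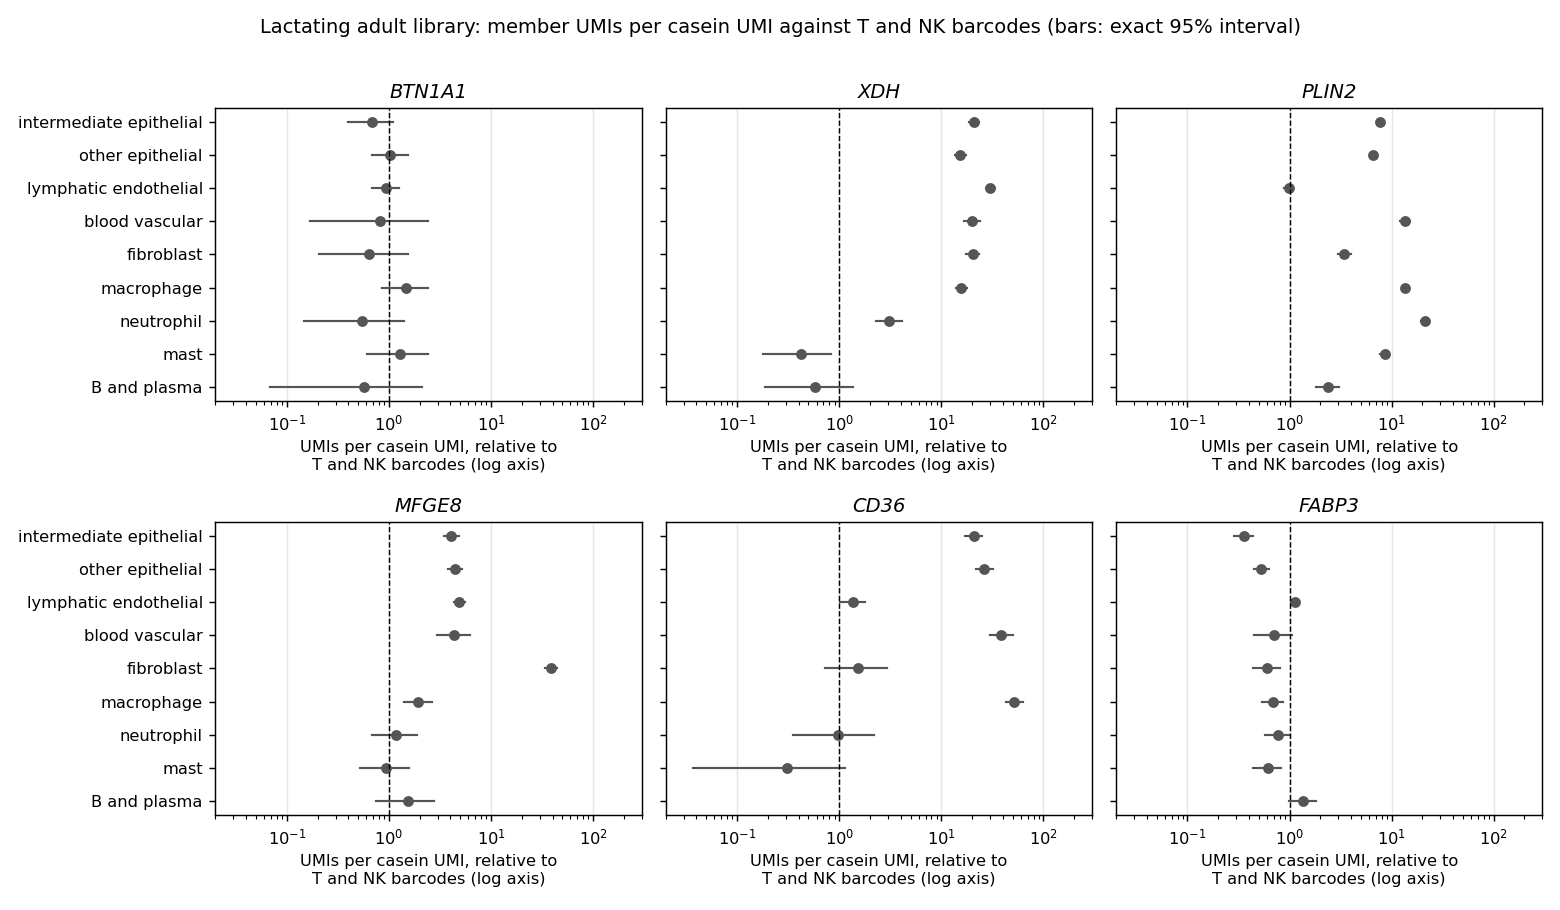
UMIs of each gene per casein UMI in gates of the lactating adult (y axis), divided by the same quantity in T and NK barcodes (x axis, log scale), with exact 95% intervals; the dashed line marks 1, the value in T and NK barcodes. BTN1A1 stays near 1 in every gate, whereas XDH reaches 30.3 in lymphatic endothelium, MFGE8 38.4 in fibroblasts, CD36 51.9 in macrophages and PLIN2 21.1 in neutrophils.

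XDH stood above the T and NK ratio in many cell types. Per casein UMI it was 30.3 times the T and NK value (27.4 to 33.6) in lymphatic endothelium, 20.9 in intermediate epithelium, 20.2 in fibroblasts, 19.9 in blood vascular endothelium, 15.8 in macrophages and 15.4 in other epithelium. It was not above it in mast (0.421, 0.181 to 0.838) or B and plasma barcodes (0.584, 0.189 to 1.37). Against macrophages, themselves among the high gates, the values were 1.92 in lymphatic endothelium, 1.32 in intermediate epithelium, 1.28 in fibroblasts, 1.26 in blood vascular endothelium and 0.976 in other epithelium.

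In endothelium XDH and CD36 stood in opposite order, XDH higher in lymphatic and CD36 in blood vessels. XDH was at 386 CPM (376 to 397) in 2229 lymphatic barcodes and at 192 CPM (165 to 222) in 107 blood vascular barcodes, and at 21.9 CPM (19.8 to 24.1) in T and NK barcodes. The lymphatic level was 17.7-fold that of T and NK barcodes (16.0 to 19.6; 20.1% of genes were called higher there, and relative to a shift of all genes of 0.57 the log2 difference was 3.57). The blood vascular level was 8.77-fold (7.31 to 10.5; 8.25% of genes called higher). XDH in blood vessels was 0.497 of that in lymphatics (0.425 to 0.576). After thinning, 38.9% of lymphatic (36.8 to 41.0) and 16.8% of blood vascular barcodes (10.3 to 25.3) held an XDH UMI, against 2.23% of T and NK barcodes (77.7%, 62.6% and 6.25% unthinned).

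For CD36, lymphatic barcodes stood at 5.91 CPM (4.70 to 7.34) and T and NK barcodes at 7.42 CPM (6.24 to 8.76), with overlapping intervals. Blood vascular barcodes stood at 126 CPM (105 to 151), 21.4-fold above the lymphatic ones (16.0 to 28.7). CD36 was uneven there: 32 of 107 barcodes held any of it, and 7 barcodes with at least 5 UMIs held 56.8% of it. PLIN2 followed CD36, at 419 CPM (378 to 463) in blood vascular and 40.6 CPM (37.4 to 44.1) in lymphatic endothelium, a ratio of 10.3 (9.04 to 11.7). These were the 2 of 6 genes called higher in blood vessels, beside 2.56% of 11025 genes, and none was called lower, beside 6.93%. The shift of all genes was -0.28, which gives log2 differences of 4.70 for CD36 and 3.65 for PLIN2 relative to it. Fat cell markers were absent from the blood vascular gate, with all 5 (ADIPOQ, LEP, CIDEC, PLIN1 and THRSP) at 0. The 8 macrophage markers summed to 22.5 CPM, with CSF1R and CD163 at 0 and others of that list counted. Marker sums of further cell types, neutrophils and mast cells among them, are not given here. The gate itself limits macrophage marker UMIs, so their low sum was set in part by its rule. The part of other cells in CD36 and PLIN2 was not tested.

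In the newborn library, with its 1 casein UMI, CD36 and PLIN2 kept this order on few barcodes, and XDH showed none. XDH was at 197 CPM (162 to 238) in 73 lymphatic and at 175 CPM (120 to 247) in 21 blood vascular barcodes, and these did not differ beyond their intervals. CD36 was at 350 CPM (270 to 447) in blood vascular barcodes, where 14 of 21 held it, and had 2 UMIs in the lymphatic ones, a ratio of 95.8 (25.5 to 808). PLIN2 was at 399 CPM (313 to 502) against 89.5 CPM (66.2 to 118), a ratio of 4.46 (3.06 to 6.55). CD36 and PLIN2 were again the genes called higher, beside 3.42% of 3448 genes. Fat cell markers were at 0 in these barcodes as well.

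MFGE8, outside the secreting cells, was highest in fibroblasts among adult gates of at least 50 barcodes. The 3 adult pericyte barcodes all held it and were too few to rank. Adult fibroblasts had it at 620 CPM (572 to 670), above the 494 CPM of secreting cells over all UMIs but below their 1878 CPM without milk protein UMIs. That was 33.6-fold the T and NK level (29.4 to 38.4; 12.5% of genes called higher), and 38.4 times per casein UMI. XDH was called with it at 17.7-fold (15.4 to 20.4). The other 4 genes did not pass in fibroblasts. Thinned to 1000 UMIs, MFGE8 was in 45.8% (39.1 to 52.7) of fibroblasts and 1.96% of T and NK barcodes (71.2% and 5.70% unthinned), with median depths of 3114 and 2895 UMIs.

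CD36 and PLIN2, which serve lipid uptake and storage, were high in macrophages. CD36 was at 268 CPM (245 to 292) in 279 macrophage barcodes, higher than in the secreting cells over all UMIs and 36.1-fold the T and NK level (29.9 to 43.9; 8.64% of genes called higher). PLIN2 was at 667 CPM (631 to 704), 9.40-fold (8.70 to 10.2), and XDH at 240 CPM (219 to 263), 11.0-fold (9.58 to 12.5). CD36 was uneven among macrophages: 69 barcodes with at least 3 UMIs held 77.0% of it, and 124 held none. The former had FABP5, a fatty acid carrier of macrophages, at 2099 CPM against 622 CPM, PLIN2 at 875 against 564 CPM, and the lipase LPL at 56.9 against 1.44 CPM. They were also deeper, with a median of 8194 against 4921 UMIs, and the part of depth in this split was not tested. XDH went the other way, at 204 against 296 CPM.

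PLIN2 was highest of all in neutrophils, at 4388 CPM (4147 to 4639) in 273 barcodes. This was 61.8-fold the T and NK level (57.2 to 66.8; 3.88% of genes called higher). These barcodes were shallow, with a median of 899 UMIs, and casein made up a larger part of them, at 45578 CPM. Per casein UMI the ratio was 21.1 (19.5 to 22.8). Thinned to 1000 UMIs, PLIN2 was in 73.0% of the 89 neutrophils deep enough (62.6 to 81.9) and in 5.79% of T and NK barcodes (68.9% and 15.4% unthinned), and 184 shallower neutrophils were left out. The newborn's 21 neutrophils stood at 2317 CPM (1813 to 2918), the highest of the newborn gates, with an interval that overlapped that of newborn mast cells. Mast cells came next, with PLIN2 at 701 CPM (642 to 763) in 298 adult barcodes, 9.87-fold the T and NK level (8.91 to 10.9; 3.09% of genes called higher), and 1760 CPM in 226 newborn barcodes.

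In order, over all UMIs, PLIN2 in the adult ran from neutrophils over mast cells and macrophages, whose intervals overlap, to blood vascular endothelium, secreting cells, the other epithelial gates and fibroblasts, and ended with lymphocytes and lymphatic endothelium. Without milk protein UMIs secreting cells, at 1262 CPM, came second after neutrophils. The order of CD36 over all UMIs was macrophages, secreting cells, blood vascular endothelium, other and intermediate epithelium, with neutrophils, fibroblasts, lymphocytes, lymphatic endothelium and mast cells at 2.67 to 21.2 CPM and 0 UMIs in B and plasma barcodes. Without milk protein UMIs secreting cells came first, at 623 CPM against 272 CPM in macrophages. For MFGE8 the order over all UMIs, with the few pericytes left out, was fibroblasts, secreting cells, then neutrophils and lymphatic endothelium, whose intervals overlap. XDH had fibroblasts, lymphatic endothelium and secreting cells at the top, and the fibroblast interval overlapped both of the others over all UMIs, but secreting cells stood alone at the top, at 1397 CPM, without milk protein UMIs.

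Between the newborn and the adult, fibroblasts could be compared best, with 10973 and 233 barcodes. CD36 was at 56.2 CPM (54.3 to 58.1) in newborn and 9.95 CPM (4.77 to 18.3) in adult fibroblasts, a ratio of 5.64 (3.07 to 11.8) that rests on 10 adult UMIs. It was the 1 gene of the 5 tested called higher in the newborn, beside 1.86% of 12683 genes. With UMIs subtracted from the adult in proportion to casein, by the T and NK ratio, it was 16.2. FABP3 was at 3.40 CPM (2.95 to 3.90) against 43.8 CPM (31.8 to 58.8), a ratio of 0.0776 (0.0558 to 0.110), and was the 1 gene called lower, beside 3.7% of genes. Per casein UMI, adult fibroblasts had 0.604 times the FABP3 of T and NK barcodes (0.437 to 0.815) and 1.38 times that of secreting barcodes (0.999 to 1.85). The subtraction used for CD36 left no adult FABP3 UMIs, so it gave no ratio for FABP3, which was then not called. For FABP3 the T and NK ratio used in it is above that of secreting barcodes. The part of free RNA in the adult value was not tested.

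The other genes did not pass in fibroblasts. PLIN2 was at 600 CPM (593 to 606) against 213 CPM (185 to 243), a ratio of 2.82 (2.46 to 3.24). XDH was at 171 CPM (167 to 174) against 387 CPM (350 to 427), a ratio of 0.441 (0.398 to 0.489), and MFGE8 at 155 CPM (152 to 158) against 620 CPM, a ratio of 0.250 (0.231 to 0.272), just inside the limit for a call. PLIN2 thus had the newborn higher, and XDH and MFGE8 the adult. All genes were shifted by -0.65, and relative to that the log2 differences were 3.08 for CD36, 2.14 for PLIN2, -0.53 for XDH, -1.35 for MFGE8 and -3.05 for FABP3. BTN1A1 had 0 newborn and 5 adult UMIs, too few to be tested. The sum of the endothelial markers in the fibroblast gate came to 5.37 CPM (newborn) and 75.6 CPM (adult), and that of the epithelial markers to 4.64 and 249.7 CPM, and their part in these ratios was not tested.

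**Figure D4:**
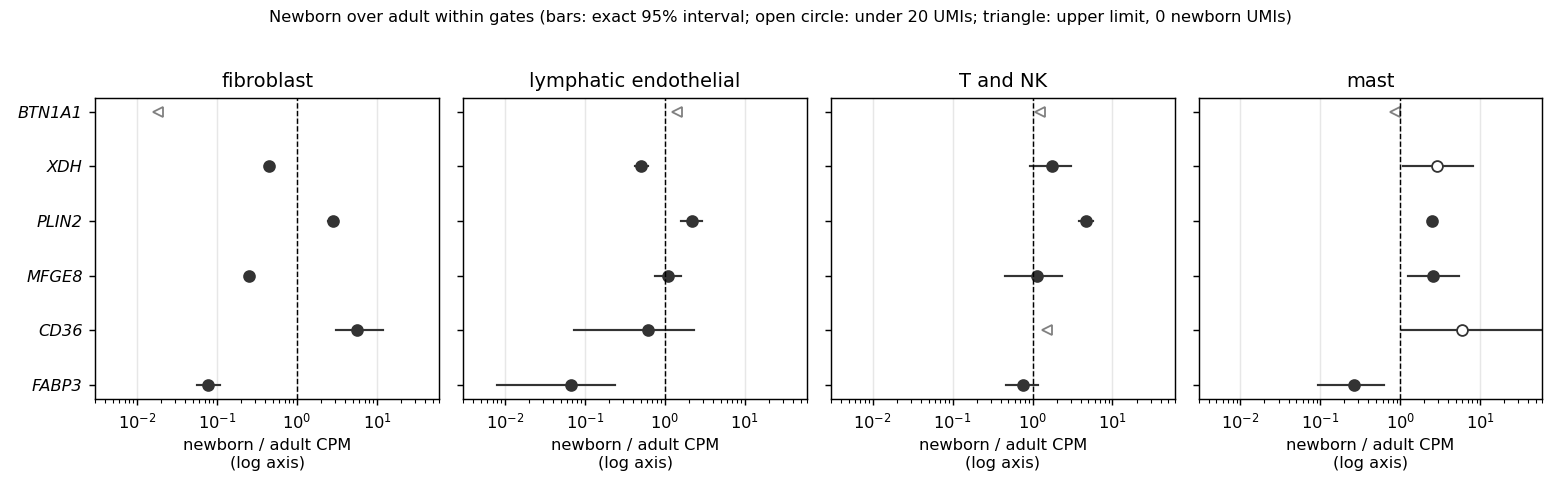
Ratio of newborn to adult CPM (x axis, log scale) for each gene in 4 gates, with exact 95% intervals; filled circles have at least 20 UMIs in the higher library, open circles fewer, and triangles give the upper limit where the newborn had 0 UMIs. In fibroblasts CD36 stands at 5.64 and PLIN2 at 2.82, above the line at 1, with XDH, MFGE8 and FABP3 below it.

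CD36 in newborn fibroblasts was carried by few barcodes. It was found in 1742 of 10973 (15.9%), and 326 barcodes with at least 3 UMIs held 47.0% of it. Those 326 had FABP4, the fatty acid carrier of fat cells and capillaries, at 180 CPM against 27.6 CPM in the 9231 barcodes without CD36, and PPARG, the receptor that drives fat cell formation, at 16.1 against 7.25 CPM. Their COL1A1, the main collagen chain, was at 3994 against 7340 CPM, and PLIN1, a coat protein of fat cell droplets, at 7.15 against 0.474 CPM. LPL and DLK1 were lower than in barcodes without CD36, at 129 against 152 CPM and 717 against 1014 CPM. The endothelial genes PECAM1 and CDH5 were at 1.79 CPM each, against 0.515 and 0.185 CPM without CD36, and at 5.04 and 2.52 CPM in the 104 barcodes with at least 5 CD36 UMIs. The gate itself limits endothelial marker UMIs, and their part in this split was not tested. Median depths were 6027 and 4956 UMIs.

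In endothelium as a whole (100 newborn and 2463 adult barcodes) CD36 was called higher in the newborn at 6.42 (4.90 to 8.33), beside 1.26% of 11225 genes, and FABP3 lower at 0.0425 (0.00514 to 0.154), on 2 newborn UMIs, beside 3.22%. With casein-linked UMIs subtracted from the adult, by the T and NK ratio, the FABP3 ratio was 0.242. In lymphatic barcodes alone it went from 0.0664 to 0.549. For FABP3 the T and NK ratio was above that of secreting barcodes, so it subtracts more than the secreting ratio would. The part of free RNA was not tested. The mix of vessels also differed between the libraries: blood vascular barcodes were 21 of 100 in the newborn and 107 of 2463 in the adult. In lymphatic barcodes alone CD36 had a ratio of 0.618 (0.0736 to 2.30). XDH was lower in newborn lymphatic barcodes, at 0.511 (0.418 to 0.618), short of a call, which 3.32% of genes passed in that direction. PLIN2 was at 2.20 there (1.61 to 2.95). In T and NK barcodes PLIN2 was at 328 CPM (270 to 396) in 63 newborn and 71.0 CPM (67.2 to 74.9) in 5599 adult barcodes, a ratio of 4.63 (3.77 to 5.62) that was called, beside 0.367% of 10616 genes. Of the newborn UMIs 80.0% came from 12 barcodes. The 8 fibroblast markers moved with this, at 131 CPM in newborn and 24.0 CPM in adult T and NK barcodes, and their part was not tested. Mast cells had a ratio of 2.51 for PLIN2 (2.24 to 2.82), so the newborn had more PLIN2 in all 4 gates plotted.

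Genes with related work were listed in 4 groups, with 37 of the 40 analysed. Of 12 other proteins of the globule coat, 4 were called higher in milk-secreting than in other epithelial barcodes and 2 lower. The mucins MUC1 (86.6 against 4.17 CPM) and MUC15 (116 against 5.84 CPM), the folate receptor FOLR1 (49.3 against 0.556 CPM) and the transporter ABCG2 (40.8 against 1.81 CPM) were higher by 19.8-fold to 88.6-fold. The tetraspanin CD9 was at 0.151 (0.147 to 0.155) and ANXA2, a membrane-binding annexin, at 0.0735 (0.0707 to 0.0763). The group's median log2 ratio was -0.05, beside -2.26 over all genes and 2.45 for the 6 genes described here. Without milk protein UMIs it had 6 higher and 0 lower.

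Of the lipid droplet genes 4 of 11 could be tested, and CIDEA, which promotes growth of droplets, was called, at 228 against 7.51 CPM, 30.4-fold (23.3 to 40.6). PLIN3 and the lipase pair PNPLA2 and ABHD5 were not. Of 9 fatty acid uptake genes 2 were higher and 6 lower, the latter near the 61.8% of all genes called lower, and without milk protein UMIs 3 were higher and 3 lower. LPL, the lipase that frees fatty acids from blood lipids, was at 130 against 1.95 CPM, 67.0-fold (39.9 to 123), and the acid transporter SLC27A6 at 132 against 2.92 CPM, 45.3-fold (29.6 to 73.4). FABP5, a relative of FABP3, was at 9.27 against 260 CPM, a ratio of 0.0356 (0.0305 to 0.0413), and ACSL5 at 0.0493 (0.0369 to 0.0649), both also called lower without milk protein UMIs. Secreting and other epithelium thus differed in which fatty acid carrier was counted. Among 3 relatives of the 6 genes that could be tested none was higher and 2 were lower, again near the share of all genes, and without milk protein UMIs 0 were lower. The 2 were AOX1, which is related to XDH and stood at 5.39 against 61.0 CPM, and SCARB1, which is related to CD36, at 0.245 against 3.34 CPM.

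**Figure D5:**
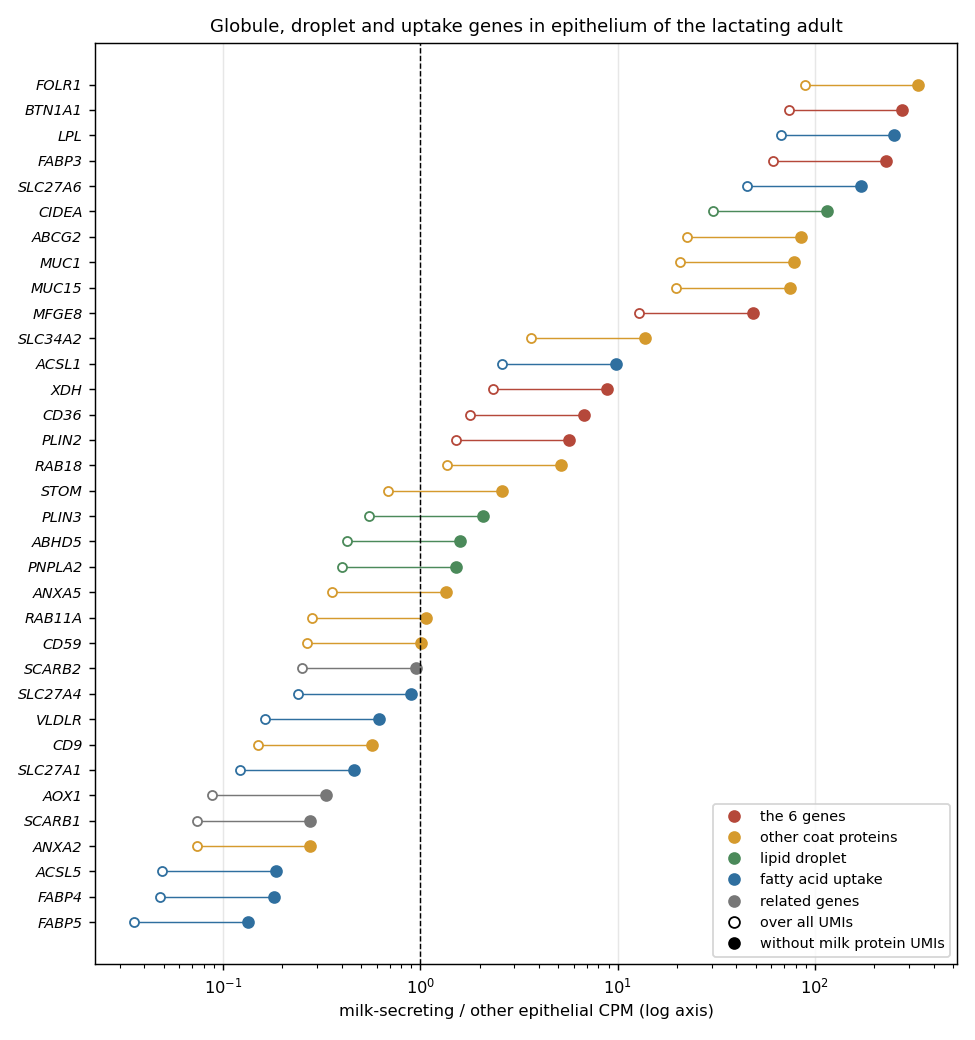
Ratio of milk-secreting to other epithelial CPM (x axis, log scale) for the 6 genes and the related genes tested (y axis), over all UMIs (open circles) and without milk protein UMIs (filled circles), coloured by group. FOLR1, BTN1A1, LPL, FABP3 and SLC27A6 stand at the top on both scales and FABP5 at the bottom, and leaving out milk protein UMIs moves every gene to the right by the same factor.

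In blood vascular against lymphatic endothelium, FABP4 (690 against 27.1 CPM, 25.5-fold, 22.4 to 29.0) and ABCG2 (93.2 against 9.59 CPM, 9.73-fold, 7.34 to 12.8) were called higher beside CD36 and PLIN2. They were 1 of 8 uptake genes and 1 of 10 coat genes tested, and 1 of 5 droplet genes (CIDEA, on 2 blood vascular UMIs) and 1 of 4 relatives (EDIL3, at 0) were called lower. In fibroblasts AOX1 was at 602 CPM (adult) and 121 CPM (newborn), a ratio of 0.200 (0.184 to 0.218), which was called. FABP4 had 0 UMIs in adult fibroblasts and 2038 in newborn ones, at least 11.5-fold higher against a floor of 3 UMIs. By group, newborn fibroblasts had 0 higher and 2 lower of 10 coat genes tested, 0 and 1 of 8 droplet genes, 1 and 1 of 8 uptake genes, and 0 and 1 of 4 relatives, beside 1.86% higher and 3.7% lower over all genes.

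Over the 15 gates of at least 50 barcodes in both libraries, the genes most like each of the 6 were named by Pearson correlation of log2(CPM + 1) among 5111 genes. BTN1A1 was nearest to ADGRF1 (0.957), CRISP3 (0.949) and SPADH1 (0.948), and FABP3 to LPO (0.863), ADGRF1 (0.832) and GP2 (0.821), all highest in secreting barcodes. XDH was nearest to CUEDC1 (0.863), RGL1 (0.852) and RAB13 (0.852), and PLIN2 to PPARD (0.793), DHRS9 (0.792) and IL1RAP (0.782), which peaked in neutrophils. MFGE8 was nearest to GLT8D2 (0.891), SDC2 (0.869) and LPL (0.798), and CD36 to CREG1 (0.801), NPC2 (0.798) and RASSF4 (0.765), which peaked in macrophages. Among the 6 genes themselves BTN1A1 and FABP3 had the highest value (0.856), followed by XDH with MFGE8 (0.659) and with CD36 (0.639), and all other pairs were below 0.4. Gates of 1 library share its depth and its casein background.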

How the data were processed

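Per gene and barcode, the authors deposited an unnormalised UMI count. The submitters' processing notes name Cell Ranger 3.1.0. Build, annotation and cell calling: not given in the sources used here. Libraries used V3 chemistry of the 10x 3' kit, per the labels' protocols.

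Barcodes with at least 300 genes and at most 20% mitochondrial UMIs were kept. A barcode entered 1 of 9 lineages with at least 3 UMIs from 2 or more of its markers and at least 2 times the UMIs of every other list, which also served to leave out doublets. Endothelium was split by vessel lists, with at least 2 UMIs of the own list and at least 3 times the UMIs of the other. CPM had exact Poisson intervals, ratios exact conditional binomial intervals, and shares Clopper-Pearson intervals. UMIs without replicates give counting error only. Ratios were checked on simulated counts. Python 3.11.15, numpy 2.4.6, scipy 1.17.1, pandas 2.3.3 and scanpy 1.11.5 (Scrublet) were used.

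Named genes were the 6 genes in every gate, the 3 most alike for each at 50 CPM or more in some gate, and up to 4 called genes with the largest ratio per related group, with any set beside a result. Genes and lists were chosen with earlier results of these data known. Alternatives changed the gates, filters, doublets, totals, free-RNA reference and call limits. Scrublet's automatic threshold marked 1.71% of adult and 0.0146% of newborn barcodes, which did not work for the newborn, so its highest scores were removed instead (11.8% and 11.0%).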

Additional observations from a re-analysis of the deposited data

Results flagged for a closer look

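Barcodes outside every gate, 5233 in the adult and 2364 in the newborn, entered no comparison and still held the genes. Of these, 4027 and 2302 passed the filters but met no marker rule, and the rest failed the filters. In the adult, barcodes outside every gate had 18.6 CPM of BTN1A1, 99.5 of XDH, 349 of PLIN2, 44.8 of MFGE8, 24.8 of CD36 and 136 of FABP3. In the newborn they had 237 CPM of XDH, 748 of PLIN2, 79.5 of MFGE8, 97.5 of CD36 and 5.76 of FABP3. Each lay above the limit that a count of 0 allows. Their median depths among passing barcodes were 2059 UMIs in the adult and 1086 in the newborn, below the 3167 and 5020 of placed barcodes.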

How the results depend on the processing

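Each of 237 results was recomputed under 21 alternatives, of which leaving out casein-rich barcodes of other lineages and taking secreting cells as the free-RNA reference were chosen after seeing the data. No paired analysis was possible because each stage has 1 library and the labels carry no replicate numbers. Depth limits the newborn vessels (21 and 73 barcodes) and adult CD36 in fibroblasts (10 UMIs). Among 55 called ratios 8 changed direction, all with macrophages, which themselves hold these genes, as the free-RNA reference: CD36 in blood vascular (0.746), intermediate (0.400) and other epithelial barcodes (0.510), PLIN2 in blood vascular (0.992), intermediate (0.574), other epithelial (0.490) and mast barcodes (0.631), and XDH in other epithelium (0.976). The lymphatic XDH value per casein UMI, 30.3, was 1.92 with that reference, 62.3 with secreting cells, 35.2 with own markers at least 4 times all others and 35.8 after Scrublet removal, and the blood vascular CD36 value, 38.7, was 60.5 with secreting cells. The ratio of XDH in lymphatic to T and NK barcodes, 17.7, was 20.0 with markers at least 4 times all others, 22.4 with every other list under 3 UMIs and 19.9 after Scrublet removal.

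Counts of the 6 genes moved as follows. Without milk protein UMIs 6 were higher in secreting cells and 2 lower in newborn fibroblasts. In newborn fibroblasts 2 were also lower, MFGE8 being close to the limit, with at least 500 genes, at most 10% mitochondrial UMIs, stricter markers of either kind and Scrublet removal. There 0 were lower with 50 UMIs and with casein-linked UMIs subtracted by the T and NK ratio. Also there, 2 were higher after Scrublet removal and with median-of-ratios scaling. At 2-fold 2 were higher in newborn endothelium, 2 higher and 3 lower in newborn fibroblasts and 2 lower in blood vessels. With casein-linked UMIs subtracted 2 were higher in newborn endothelium.

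Counts of related genes in secreting cells moved too. At 2-fold 5 coat and 2 droplet genes were lower. Without milk protein UMIs 0 coat genes, 3 uptake genes and 0 relatives were lower. At a casein limit of 5 times 1 coat gene was lower, and with 50 UMIs or every other list under 3 UMIs 1 relative. In newborn fibroblasts at 2-fold 1 droplet gene was higher and 2 relatives were lower. With median-of-ratios scaling 1 droplet gene was higher, and 0 coat genes, uptake genes and relatives were lower. After Scrublet removal or with 50 UMIs 1 coat gene, 0 droplet and 0 uptake genes were lower. With every other list under 3 UMIs 0 droplet genes and 0 uptake genes were lower, and 0 uptake genes also with 6 own marker UMIs, markers at least 4 times all others or at most 10% mitochondrial UMIs.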
